A study of Rattus norvegicus with 12 samples.

Results

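The miRNAs carried by extracellular vesicles (EVs) of liver and of bone marrow mesenchymal cells were compared on 6 arrays of the 12 in the study, 3 of EVs from Thy1-positive liver cells (Thy1-EVs) and 3 of EVs from bone marrow mesenchymal cells (MSC-EVs). The other 6 arrays were 3 of EVs from small hepatocytes (SHs, hepatocytic progenitor cells) and 3 of EVs from mature hepatocytes (MHs). They entered the normalization, the choice of probes tested and the model's estimate of the spread, and their values are given only for comparison. The arrays were picked by the labels alone, and all 727 rat miRNA probes of the 3D-Gene Oligo Chip, a 1-colour array with Cy3-labelled miRNA, were considered.

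The labels call the first source rat liver stem cells and the second bone marrow mesenchymal cells. By the methods, Thy1 cells were magnetically sorted from livers of adult male F344/Nslc rats 3 days after injection of d-galactosamine, a hepatotoxin, and grown for 7 days, after which the epithelial colonies were lifted off and the mesenchymal cells (Thy1-MCs) remained. The labels do not say that colonies were removed before these arrays. The strain, the animals' state, the passage and the medium of the marrow cells were not found in the labels or the methods. The labels put both cell types on plastic dishes, and both were kept for 2 days in DMEM without serum before the EVs were collected. Organ, liver injury and culture history therefore cannot be told apart in this comparison. No source says whether the 3 samples of a group came from separate animals or cultures, so the p-values cover only how far these samples spread, which may be technical.

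MiRNAs are short RNAs that guide Argonaute proteins to messenger RNAs, mainly through the seed, bases 2 to 8 from the 5′ end. A hairpin precursor gives one mature miRNA from each arm, 5p and 3p, and usually one of them is retained far more than the other. Cells release a part of their miRNAs in EVs, and mesenchymal cells of many organs share miRNAs that are rich in fibroblasts and smooth muscle, such as the miR-199a/miR-214, miR-143/miR-145, miR-21 and miR-125 families. An array of an EV preparation reads a pooled amount, so fewer EVs that carry a miRNA and fewer copies in each EV cannot be told apart.

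The mature sequences on which the comparison turned are shown first, from RefSeq (build GRCr8), with the seed in capitals. The first set holds the miRNAs that were higher in MSC-EVs and share a seed in pairs or threes, shown because members of a seed family fell together in Thy1-EVs.
miR-146a-5p: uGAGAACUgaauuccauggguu
miR-146b-5p: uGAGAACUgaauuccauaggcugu
miR-221-3p: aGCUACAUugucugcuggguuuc
miR-222-3p: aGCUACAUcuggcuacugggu
miR-16-5p: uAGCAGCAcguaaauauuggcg
miR-15b-5p: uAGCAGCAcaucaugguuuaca
miR-30a-5p: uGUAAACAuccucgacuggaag
miR-30e-5p: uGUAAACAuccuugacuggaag
miR-30c-5p: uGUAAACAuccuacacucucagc

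MiR-146a-5p lies at chr10:28350053-28350074 on the minus strand, inside an unnamed lncRNA gene, and miR-146b-5p at chr1:255144874-255144897 on the plus strand. MiR-222-3p and miR-221-3p are encoded side by side at chrX:6022682-6022702 and chrX:6023246-6023268, and miR-15b-5p and miR-16-5p at chr2:155555197-155555218 and chr2:155555343-155555364 inside the span of Smc4, all on the plus strand. The table used gives gene spans only, so exons and introns are not stated.

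The second set holds the miRNAs that were higher in Thy1-EVs under every scaling of the arrays, with the close relatives that serve as their comparison. MiR-664-1-5p and miR-664-2-5p share a seed, as do miR-125a-5p and miR-125b-5p, of which the latter did not pass the test.
miR-10a-5p: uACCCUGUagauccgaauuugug
miR-31a-5p: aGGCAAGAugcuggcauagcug
miR-664-1-5p: cUGGCUGGggaaaaagauugg
miR-664-2-5p: cUGGCUGGggaaaaugauugg
miR-125b-1-3p: aCGGGUUAggcucuugggagcu
miR-125a-3p: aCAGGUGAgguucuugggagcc
miR-125a-5p: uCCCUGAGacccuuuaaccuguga
miR-125b-5p: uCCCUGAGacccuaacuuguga
miR-30c-1-3p: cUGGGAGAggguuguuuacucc

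MiR-10a-5p lies at chr10:81779730-81779752 on the plus strand, miR-31a-5p at chr5:108714906-108714927 on the minus strand and miR-664-1-5p at chr18:48150366-48150386 on the plus strand. MiR-125a-5p and miR-125a-3p are the arms of Mir125a at chr1:67350689-67350748 within Spaca6, and miR-125b-1-3p lies at chr8:50850090-50850111, all on the plus strand. MiR-30c-1-3p and miR-30c-5p come from opposite arms of Mir30c1 at chr5:139634467-139634527 on the minus strand, within the span of Nfyc, which also holds miR-30e-5p.

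Among 387 miRNAs tested, 91 (23.5%) separated the sources, 50 with more (12.9%) and 41 with less (10.6%) in Thy1-EVs, with limma and a Benjamini-Hochberg adjusted p under 0.05. Of the 387 tested, 41 were detected on none of these 6 arrays, a count separate from that of the decreases. They were tested because SH-EVs or MH-EVs had them, and they count in the shares over all miRNAs tested. The increases were shallow and the decreases deeper. The median log2 difference was 0.67 among the 50 and -1.29 among the 41, against 0.08 over all miRNAs tested, and 10 of the increases and 27 of the decreases were over 2-fold. All 91 had values that did not overlap between the groups, as did 153 of the 387 tested (39.5%). Over the tested probes, arrays of one group correlated at 0.955 to 0.980 (Thy1-EVs) and 0.943 to 0.974 (MSC-EVs), and Thy1-EV with MSC-EV arrays at 0.846 to 0.912. Thy1-EV arrays correlated about as highly with SH-EV arrays, at 0.864 to 0.909, and MSC-EV with SH-EV arrays at 0.790 to 0.842. The likeness of Thy1-EVs to MSC-EVs was therefore not particular to the 2 mesenchymal sources.

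**Figure D1:**
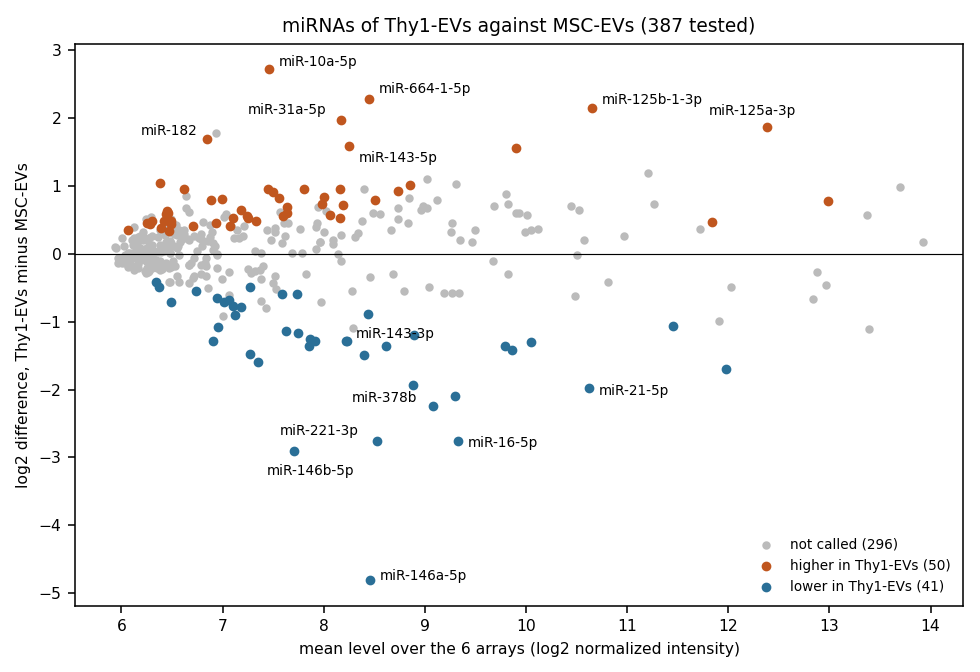
Log2 difference between Thy1-EVs and MSC-EVs (vertical axis) against the mean level over the 6 arrays (horizontal axis, log2 normalized intensity) for the 387 miRNAs tested, 1 point each. The 50 called increases (orange) mostly lie under 1, whereas the 41 called decreases (blue) reach -4.81 for miR-146a-5p.

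How the arrays were put on a common scale moved the balance of calls. Increases made up 54.9% of the calls after quantile normalization, 44.7% after scaling to the median of the probes detected on all arrays (17 higher, 21 lower), 26.7% with the 75th percentile (8 and 22) and 35.7% with cyclic loess (15 and 27). They made up 90.3% when spots of the spiked-in control RNA set the scale (28 and 3). They made up 85.3% in the authors' normalized intensities (58 and 10), which differ in the background correction as well as in the scale. The median difference of all tested miRNAs was 0.08, -0.36, -0.60, -0.00, 0.33 and 0.23 under these settings in the same order, so differences are relative to the scale used. Under all 5 other scalings, the authors' intensities counted as one, 6 of the 50 increases and 3 of the 41 decreases passed, and 30 and 39 kept their sign. The 6 were miR-10a-5p, miR-31a-5p, miR-664-1-5p, miR-125b-1-3p, miR-125a-3p and miR-30c-1-3p, and the 3 were miR-146a-5p, miR-146b-5p and miR-221-3p. Each of the other calls was lost under at least 1 of these scalings. With the methods' t-test after Benjamini-Hochberg adjustment, miR-10a-5p and the 3 decreases kept their calls, and the rest of the 6 increases lost theirs. Depth of detection also differed, with 228, 272 and 359 probes detected on the Thy1-EV arrays and 174, 256 and 245 on the MSC-EV arrays.

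MiR-146a-5p showed the widest separation. This miRNA and miR-146b-5p are induced by NF-κB and damp its signalling by repressing its adaptors. The log2 level of miR-146a-5p was 6.13, 5.97 and 6.07 in Thy1-EVs, where no array detected it, and 10.16, 11.44 and 10.99 in MSC-EVs. It was at least 21.5-fold higher in MSC-EVs, counted against the lowest detected level of each Thy1-EV array (fitted log2 difference -4.81, SE 0.27, adjusted p = 1.02e-06). No SH-EV array detected it either, at a mean of 6.17, and all 3 MH-EV arrays did at a mean of 6.98. MiR-146b-5p followed the same pattern, with 6.23, 6.14 and 6.37 in Thy1-EVs, where 1 array detected it, against 8.55, 9.46 and 9.46 in MSC-EVs (log2 difference -2.91, SE 0.23, adjusted p = 7.17e-06). Both kept their call under the 18 alternatives in which they could be tested and without each of the 6 arrays in turn.

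MiR-221-3p and miR-222-3p, which share a seed and promote proliferation by repressing cell cycle inhibitors, were also lower in Thy1-EVs. MiR-221-3p stood at 7.33, 7.42 and 6.71 in Thy1-EVs and at 9.42, 10.28 and 10.02 in MSC-EVs (log2 difference -2.76, SE 0.23, adjusted p = 1.07e-05). MiR-222-3p was detected on 2 Thy1-EV arrays and on all 3 MSC-EV arrays (6.50, 6.46 and 6.31 against 7.27, 7.72 and 7.50, log2 difference -1.07, SE 0.13, adjusted p = 0.000204). The groups were apart for both, by over 1 log2 unit in means, and both were at 6.01 to 6.79 in the means of SH-EVs and MH-EVs. MiR-21-5p, which rises in activated stellate cells and myofibroblasts, was at 9.88, 10.06 and 8.97 in Thy1-EVs and at 11.44, 11.74 and 11.64 in MSC-EVs (log2 difference -1.97, SE 0.41, adjusted p = 0.00654). Its call was lost with spike-in scaling and in the authors' normalized intensities, and that of miR-222-3p with spike-in scaling. In the list of miR-21 and miR-221/miR-222, 3 of 4 tested members fell and none rose, against 10.6% lower over all miRNAs tested, with a median of -1.52.

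**Figure D2:**
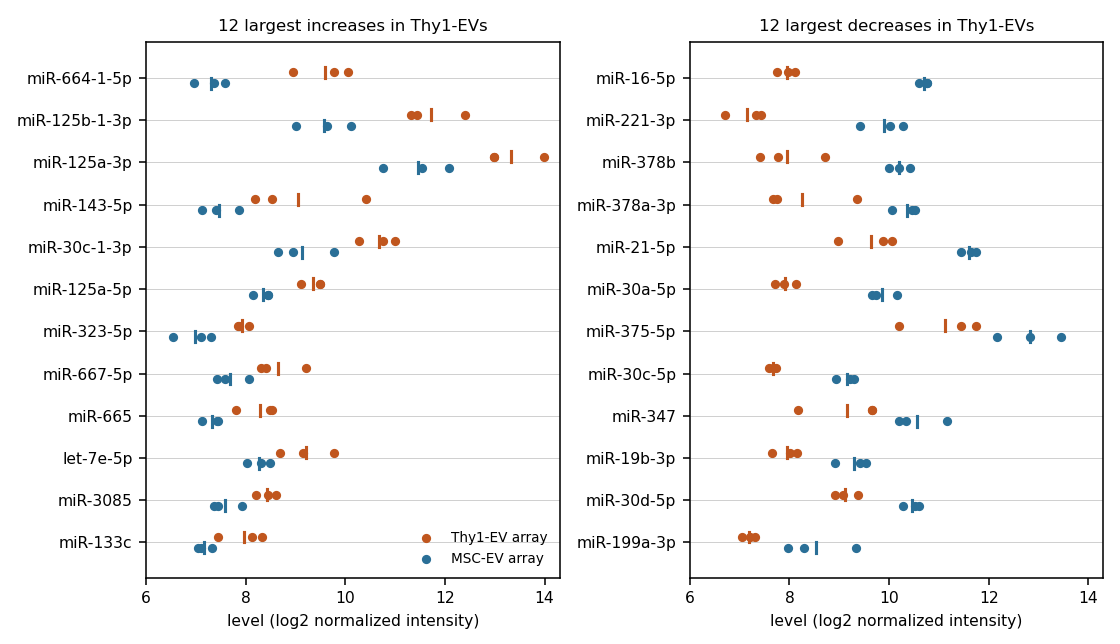
Log2 normalized intensity on each array (points, with short bars for means of 3) of the 12 largest increases and the 12 largest decreases. They were taken from miRNAs detected on all 6 arrays that passed the test and whose groups did not overlap. The orange Thy1-EV points and the blue MSC-EV points are therefore apart in every row by the choice of rows. The points of miR-16-5p lie close together within each group.

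MiR-16-5p, which represses cyclins and BCL2 and shares its seed with miR-15b and miR-195, was the largest decrease among miRNAs detected on all 6 arrays. Its level was 8.11, 7.97 and 7.74 in Thy1-EVs and 10.76, 10.60 and 10.76 in MSC-EVs (log2 difference -2.76, SE 0.23, adjusted p = 9.44e-06). MiR-15b-5p, from the same cluster, was at 7.39, 7.34 and 6.97 against 8.12, 8.66 and 8.68 (log2 difference -1.25, adjusted p = 0.00382). The third member to fall was miR-195-5p, which was detected on no Thy1-EV array and on 1 MSC-EV array (-0.42, adjusted p = 0.0485), a call kept when MSC-EV array 3 was left out and lost without any other array. Under each of the 5 other scalings it was lost too. The calls of miR-16-5p and miR-15b-5p were lost with spike-in scaling, and that of miR-15b-5p also in the authors' normalized intensities. In the list of miR-15/miR-16 and relatives, which also holds both arms of miR-503, 3 of 7 tested members fell and none rose, against 10.6% lower over all miRNAs tested, with a median of -0.42 that kept its sign under each scaling.

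The miR-30 family is abundant in differentiated epithelia and many other tissues. All 5 tested 5p members fell, against 10.6% lower over all miRNAs tested. MiR-30a-5p was at 7.71, 8.14 and 7.89 in Thy1-EVs and at 9.73, 9.66 and 10.16 in MSC-EVs (log2 difference -1.93, SE 0.18, adjusted p = 2.68e-05). MiR-30e-5p differed by -1.60 (detected on 2 Thy1-EV arrays), miR-30c-5p by -1.49, miR-30d-5p by -1.35 and miR-30b-5p by -1.29, with adjusted p from 0.000124 to 0.00297. Their direction was the same under each scaling, although all 5 calls were lost when spike-in spots set the scale. Those of miR-30b-5p, miR-30c-5p and miR-30d-5p were also lost in the authors' normalized intensities, and that of miR-30d-5p with the median of the common probes. Of the 4 tested 3p members miR-30c-1-3p rose, and the other 3 did not pass and were detected on at most 1 of the 6 arrays. The median over the 9 tested members was -1.29.

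MiR-378a-3p and miR-378b, near-identical in sequence and hosted, for miR-378a, in the metabolic coactivator gene Ppargc1b, were lower in Thy1-EVs as well. MiR-378a-3p was at 7.67, 7.74 and 9.35 against 10.06, 10.46 and 10.53 (log2 difference -2.10, SE 0.41, adjusted p = 0.00452), and miR-378b, whose probe may read the same miRNA, differed by -2.24 (SE 0.34, adjusted p = 0.00109). On array 3 of Thy1-EVs both lay closer to MSC-EVs than on the other Thy1-EV arrays. Their means in MH-EVs were 10.00 and 9.78, near those of MSC-EVs, and 7.46 for each in SH-EVs. The calls of miR-378a-3p and miR-378b were lost with spike-in scaling, and that of miR-378a-3p also in the authors' normalized intensities. MiR-34a-5p, a p53 target that slows the cell cycle, fell by 1.29 on the log2 scale (7.48, 7.83 and 7.44 against 8.61, 8.97 and 9.05, adjusted p = 0.000127). Its call was lost under both of these settings.

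MiR-10a-5p led the increases. It is encoded in a Hox cluster, whose genes mark position along the body axis, and was detected on all 3 Thy1-EV arrays and on no MSC-EV array. Its level was 8.66, 8.91 and 8.87 in Thy1-EVs and 6.16, 6.23 and 5.91 in MSC-EVs, at least 4.34-fold higher (fitted log2 difference 2.72, SE 0.20, adjusted p = 5.05e-06). It was lower in the other liver sources, with means of 6.41 in SH-EVs and 7.43 in MH-EVs. Of the other 3 tested members of the miR-10/miR-196 list none passed the test, and miR-10b-5p, miR-196a-5p and miR-196c-5p were not tested, since no group had them detected on all of its arrays.

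MiR-31a-5p, studied as a brake on bone formation in skeletal progenitors, was at 9.14, 9.42 and 8.91 in Thy1-EVs and at 6.99, 7.83 and 6.75 in MSC-EVs, of which 2 arrays detected it (log2 difference 1.97, SE 0.26, adjusted p = 0.000314). It was high in SH-EVs and MH-EVs too, with means of 10.11 and 9.31, so that MSC-EVs were the lowest of the 4 groups. MiR-664-1-5p, whose precursor overlaps a small nucleolar RNA gene, was at 10.06, 9.78 and 8.94 against 7.59, 6.95 and 7.37 (log2 difference 2.29, SE 0.27, adjusted p = 0.000190). MiR-664-2-5p, which shares its seed, rose by 0.80 (adjusted p = 0.00416), a difference that was -0.02 with scaling to the 75th percentile. Cross-binding between the probes of these near-identical sequences was not tested.

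The miR-125 and miR-99/miR-100 families are common in fibroblasts and stromal cells. Of 9 tested members 3 rose, all of miR-125, against 12.9% higher over all miRNAs tested, and none fell. The median over the 9 was 0.83, and 2 of the members that did not pass, miR-125b-2-3p and miR-99b-3p, were detected on 2 Thy1-EV arrays and 1 MSC-EV array. MiR-125b-1-3p was at 11.32, 12.40 and 11.44 in Thy1-EVs and at 10.11, 9.00 and 9.62 in MSC-EVs (log2 difference 2.15, SE 0.37, adjusted p = 0.00247). MiR-125a-3p was at 12.99, 13.98 and 12.99 against 12.07, 10.76 and 11.53 (log2 difference 1.87, SE 0.47, adjusted p = 0.0161), and its call was lost without Thy1-EV array 2 and without MSC-EV array 2. MiR-125a-5p was at 9.48, 9.48 and 9.11 against 8.15, 8.45 and 8.45 (log2 difference 1.01, SE 0.21, adjusted p = 0.00666). MiR-125b-5p, a regulator of proliferation with the same seed as miR-125a-5p, overlapped between the groups at 11.04, 11.17 and 9.82 against 10.46, 10.64 and 10.34 (0.20, 95% interval -0.45 to 0.84). The probe of miR-125a-3p read above that of miR-125a-5p on every array of both groups. That of miR-125b-1-3p read above that of miR-125b-5p on the Thy1-EV arrays only. Whether the 3p probes bind other RNA was not tested. Let-7e-5p, which lies with miR-99b and miR-125a in one cluster, rose by 0.93 (8.68, 9.14 and 9.78 against 8.31, 8.48 and 8.02, adjusted p = 0.0171), a call lost without array 3 of either group. Among the 5 other scalings that call was kept only in the authors' normalized intensities.

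**Figure D3:**
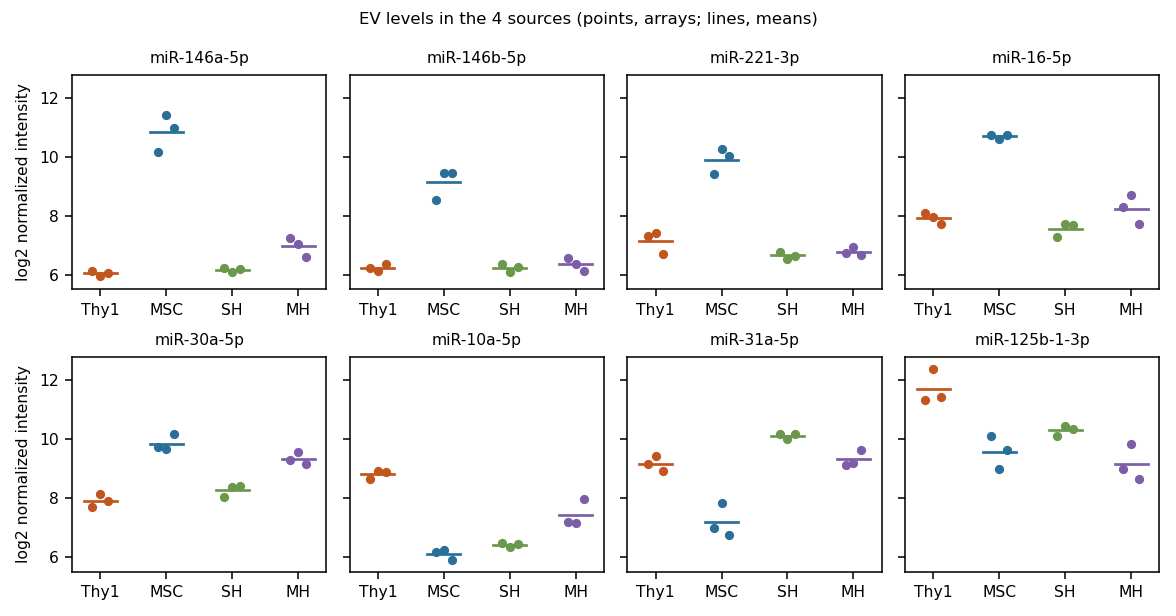
Log2 normalized intensity of 8 miRNAs on the 12 arrays by EV source (points, arrays; lines, means of 3; Thy1, liver Thy1 cells; MSC, bone marrow mesenchymal cells; SH, small hepatocytes; MH, mature hepatocytes). MiR-146a-5p, miR-146b-5p, miR-221-3p and miR-16-5p are highest in MSC-EVs, miR-10a-5p and miR-125b-1-3p in Thy1-EVs, and miR-31a-5p is lowest in MSC-EVs.

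Besides miR-10a-5p, 12 miRNAs were detected on all 3 Thy1-EV arrays and on no MSC-EV array, of which 8 passed the test. MiR-182 was at 7.19, 7.85 and 8.02 against 6.08, 5.88 and 6.04, at least 1.98-fold higher (adjusted p = 0.000193). It belongs to a sensory and epithelial cluster with miR-96 and miR-183 and was highest in SH-EVs (mean 9.94). Its neighbour miR-183-5p rose as well (log2 difference 1.05, 2 Thy1-EV and no MSC-EV arrays detecting it). The call of miR-183-5p was lost without any 1 array other than Thy1-EV array 1, and under each of the 5 other scalings. That of miR-182 was lost with the median, the 75th percentile, cyclic loess and spike-in scaling, with its sign kept. MiR-3552, miR-141-5p, miR-3558-5p, miR-485-3p and miR-675-3p had lower bounds of 1.32-, 1.04-, 1.05-, 1.02- and 1.03-fold, that is, they lay just above the detection limit. MiR-409a-3p and miR-26b-3p have no bound above 1. Of these, miR-141-5p, miR-3558-5p, miR-485-3p, miR-675-3p, miR-409a-3p and miR-26b-3p changed sign under at least 1 other scaling. Calls were lost without Thy1-EV array 3 for miR-3552, miR-675-3p, miR-409a-3p and miR-26b-3p, without MSC-EV array 3 for the same miRNAs except miR-675-3p, without MSC-EV array 2 for miR-675-3p and miR-409a-3p, without array 1 of either group for miR-26b-3p, and for miR-3552 also without Thy1-EV array 2 or MSC-EV array 1 and for miR-409a-3p without Thy1-EV array 1. In the opposite direction miR-146a-5p was the 1 miRNA detected on all MSC-EV and no Thy1-EV arrays.

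Comparing the arms of 1 precursor removes a shift that is equal for all log2 values of an array, but not one that varies with the level. Of 86 precursors with both arms tested, 22 (25.6%) differed between their 5p and 3p arms in the change from MSC-EVs to Thy1-EVs (limma, adjusted p under 0.05). For 15 of the 86 both arms were detected on all 6 arrays, and 7 of these differed. Where 1 arm was at or under the detection limit, its own change is compressed, which widens or narrows the difference by an unknown amount. In 3 precursors both arms passed in opposite directions, and in 2 in the same direction.

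Mir30c1 was one of the 3. MiR-30c-1-3p was at 10.28, 10.76 and 10.99 in Thy1-EVs and at 9.78, 8.64 and 8.94 in MSC-EVs (1.56, SE 0.26, adjusted p = 0.00214), while miR-30c-5p was at 7.59, 7.72 and 7.67 against 9.29, 8.94 and 9.21. The difference between the arms was -3.04 (SE 0.27, adjusted p = 7.77e-06). MiR-30c-5p is also made from Mir30c2, whose 3p arm, miR-30c-2-3p, differed by -0.09, so the 5p value joins both precursors.

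Mir143, a precursor of smooth muscle and stromal cells inside the lncRNA gene Carmn, was another.
miR-143-5p: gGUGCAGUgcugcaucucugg
miR-143-3p: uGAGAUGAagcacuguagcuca
The arms, shown because they moved apart, lie at chr18:57371408-57371428 and chr18:57371373-57371394 on the minus strand. MiR-143-5p was at 8.19, 8.53 and 10.42 in Thy1-EVs and at 7.40, 7.86 and 7.11 in MSC-EVs (1.59, SE 0.47, adjusted p = 0.0322), with array 3 of Thy1-EVs far above the others. MiR-143-3p, the arm usually retained, was at 7.38, 8.07 and 7.28 against 8.64, 9.35 and 8.61 (-1.29, SE 0.29, adjusted p = 0.00936). The arms differed by 2.88 (SE 0.57, adjusted p = 0.00284). The call of miR-143-5p was lost without MSC-EV array 1 and without MSC-EV array 3, and was kept under only 2 of the 5 other scalings. That of miR-143-3p was lost under each of the 5 other scalings. Both arms kept their sign under all 5. The third was Mir487b of the Dlk1-Dio3 region, with 0.45 for miR-487b-5p and -0.71 for miR-487b-3p. MiR-487b-5p was detected on 1 Thy1-EV and no MSC-EV array and was tested because SH-EVs and MH-EVs had it, so its difference lies between values near background. Both calls were lost under each of the 5 other scalings and without Thy1-EV array 3, and that of miR-487b-3p also without MSC-EV array 2.

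Other precursors had 1 arm that passed. For Mir21, miR-21-5p fell, whereas miR-21-3p stood at 6.74, 6.76 and 6.74 against 5.93, 6.54 and 6.22 (0.52, adjusted p = 0.0508), and the arms differed by -2.49 (SE 0.46, adjusted p = 0.00204). For Mir378, miR-378a-3p fell and miR-378a-5p differed by 0.59 (adjusted p = 0.0887), an arm difference of 2.68 (adjusted p = 0.00246). For Mir199a2, miR-199a-3p was at 7.20, 7.31 and 7.04 against 8.30, 9.33 and 7.97 (-1.35, SE 0.28, adjusted p = 0.00552) and miR-199a-5p differed by -0.51, an arm difference of 0.84 (adjusted p = 0.00856). The call of miR-199a-3p was lost with cyclic loess, with spike-in scaling and in the authors' normalized intensities. The 22 became 8 when probes had to be detected on all 6 arrays, 11 in the authors' normalized intensities, and 14 with cyclic loess or with only the 6 arrays in the fit.

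**Figure D4:**
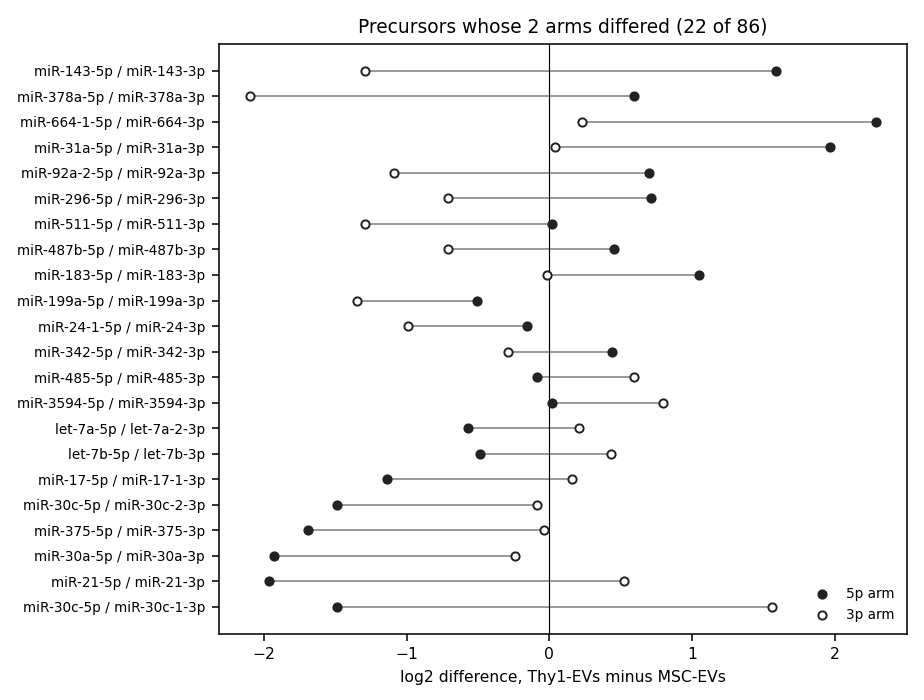
Log2 difference between Thy1-EVs and MSC-EVs of the 5p arm (filled) and the 3p arm (open) of the 22 precursors whose arms differed, joined by a line. The filled and open circles of miR-30c-1 and miR-143 lie on opposite sides of 0, with miR-30c-5p at -1.49 and miR-30c-1-3p at 1.56.

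What the sources shared was read from detection and from the interval of the difference. On all 6 arrays 158 miRNAs were detected, against 217 on all Thy1-EV and 168 on all MSC-EV arrays. Of the 158, 25 were higher and 29 lower in Thy1-EVs, and for 61 (38.6%) the 95% interval lay wholly within 2-fold, 11 of which had passed as different. For 54 of the 158 neither was shown. The count of 61 fell to 1 in the authors' normalized intensities and to 6 with plain background subtraction, so likeness within 2-fold depended on the processing. Of the spots that carry no probe, 44.4% to 69.8% per array also passed the detection limit. With detection judged against those spots, 102 miRNAs were detected on all 6 arrays.

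The narrowest intervals belonged to miR-150-5p and miR-877. MiR-150-5p, a lymphocyte miRNA, was at 7.16, 6.92 and 6.73 in Thy1-EVs and 7.06, 6.82 and 6.73 in MSC-EVs (95% interval -0.24 to 0.36). It lay near the detection limit, with raw intensities of 152.5, 179.6 and 128.1 in MSC-EVs against limits of 151.5, 154.0 and 122.4. Differences are compressed there, so its narrow interval does not show equal amounts. MiR-877 differed by 0.02 (-0.36 to 0.39). Further down the 12 narrowest were miR-130b-3p (0.01, interval -0.47 to 0.48), miR-320-3p (0.17, -0.20 to 0.54), miR-25-3p (0.15, -0.31 to 0.60) and miR-484 (0.21, -0.20 to 0.62). Several were less alike in the hepatocytic sources, such as miR-25-3p with a mean of 8.17 in Thy1-EVs, 8.02 in MSC-EVs and 9.92 in SH-EVs. No test of that contrast was made here.

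The list of miRNAs that the study picked for follow-up, to which miR-146a-5p of its earlier marrow work was added, had 7 tested members with miR-146a-5p included. Of these 3 passed, against 23.5% over all miRNAs tested, all lower in Thy1-EVs, namely miR-146a-5p, miR-451-5p and let-7f-5p (-0.59, adjusted p = 0.0422). The call of let-7f-5p was lost without any 1 array other than MSC-EV array 1. The calls of let-7f-5p and miR-451-5p were lost under each of the 5 other scalings. The study chose the listed miRNAs other than miR-146a-5p on these arrays, so the list is not independent evidence. MiR-145-5p, a smooth muscle miRNA, was at 10.11, 10.20 and 11.17 in Thy1-EVs and 9.94, 11.53 and 10.06 in MSC-EVs, with an interval of -1.11 to 1.07 that does not place it within 2-fold. MiR-199a-5p, which is high in stellate cells and fibroblasts, was at 7.30, 7.18 and 7.33 against 7.77, 8.36 and 7.21 (-0.51, SE 0.22, adjusted p = 0.124). MiR-214-3p, from the same transcript, differed by 0.32 (interval -0.42 to 1.07). MiR-3473 spanned 12.07 to 13.23 against 13.23 to 14.29 (-1.10, adjusted p = 0.234). The median of the list was -0.59, and 0.06 with spike-in scaling. In the list of miR-199a/miR-214 and miR-143/miR-145, 1 of 6 tested members rose and 2 fell (12.9% and 10.6% over all miRNAs tested), and the median of -0.26 turned to 0.46 with spike-in scaling and to 0.30 in the authors' intensities.

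**Figure D5:**
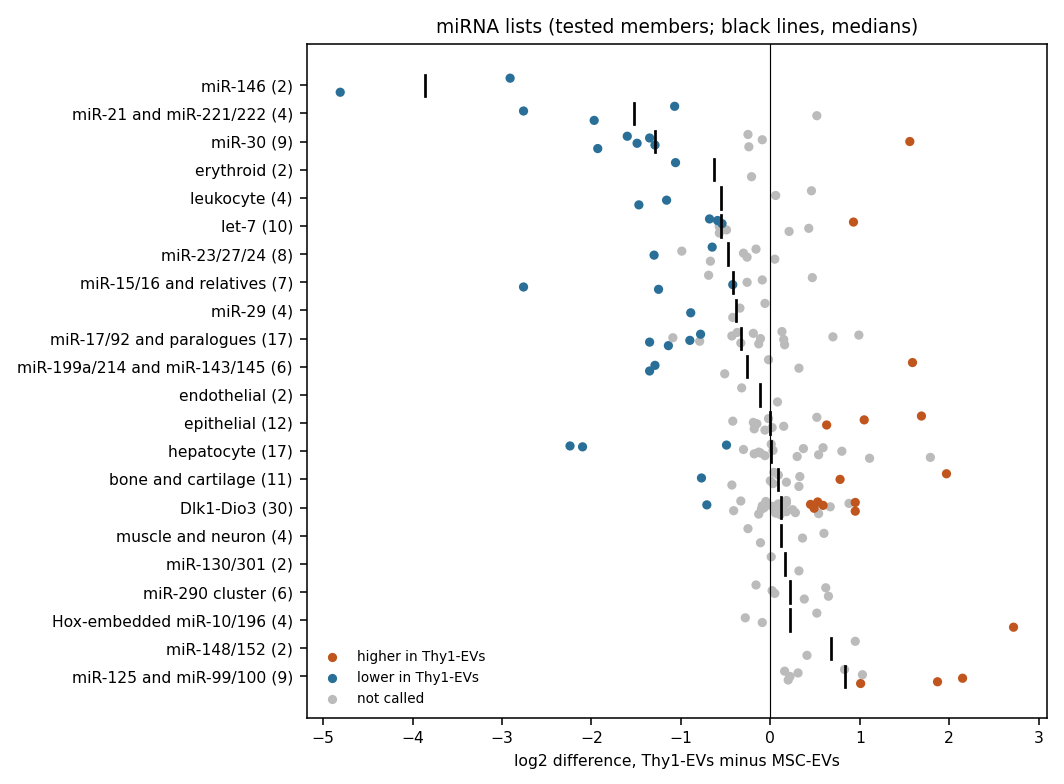
Log2 difference between Thy1-EVs and MSC-EVs of the tested members of 22 miRNA lists (points; number of tested members in brackets; black lines, medians). The miR-146, miR-21 and miR-221/miR-222 and miR-30 lists have medians of -3.86, -1.52 and -1.29, and the miR-125 and miR-99/miR-100 list has a median of 0.83, against 0.08 over all tested miRNAs.

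Families tied to growth, differentiation or matrix were counted against 12.9% higher and 10.6% lower over all miRNAs tested. In the miR-17/92 list, which promotes proliferation, 4 of 17 tested members fell and none rose, with a median of -0.33 that became 0.09 with spike-in scaling. MiR-19b-3p was at 8.15, 8.02 and 7.65 against 8.91, 9.42 and 9.54 (-1.35, SE 0.18, adjusted p = 0.000378), and miR-17-5p, miR-20b-5p and miR-93-5p, which share the seed AAAGUGC, differed by -1.14, -0.90 and -0.78, the call of miR-20b-5p being lost without Thy1-EV array 2 or 3. All 4 calls were lost with spike-in scaling and in the authors' intensities. Among the other scalings miR-20b-5p kept its call under none and miR-93-5p only with cyclic loess. In the let-7 list, whose members promote differentiation, 3 of 10 fell and let-7e-5p rose, with a median of -0.55 that became 0.28 with spike-in scaling and 0.05 in the authors' intensities. The miR-29 family, which represses collagens, had 1 of 4 members lower, miR-29b-3p at -0.89, with a median of -0.38 that became 0.25 with spike-in scaling. The call of miR-29b-3p was kept only with cyclic loess among the 5 other scalings. In the miR-23/27/24 clusters miR-27a-3p (-1.30) and miR-24-2-5p (-0.65) fell among 8 tested members, and the median of -0.48 became 0.36 with spike-in scaling and 0.31 in the authors' intensities. Both calls were lost under these 2 settings, and that of miR-24-2-5p under each of the 5 other scalings.

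MiRNAs of blood cells were detected in both sources, and 3 of the 6 tested passed the test, all lower in Thy1-EVs, against 10.6% lower over all miRNAs tested. MiR-451-5p, a red cell miRNA, was at 11.44, 10.90 and 10.46 in Thy1-EVs and 12.17, 11.89 and 11.89 in MSC-EVs (-1.06, SE 0.21, adjusted p = 0.00452). Its call was lost under each of the 5 other scalings, with a difference of 0.06 under spike-in scaling. MiR-451-5p was detected on no SH-EV and 1 MH-EV array. Its cluster partner miR-144-3p did not pass (-0.21) and was detected on all 6 arrays. The myeloid miR-223-3p was at 7.46, 7.11 and 6.94 against 8.80, 8.04 and 8.15 (-1.16, adjusted p = 0.00416). Among the 5 other scalings its call was kept only with cyclic loess. The leukocyte miR-142-5p, detected on 2 Thy1-EV arrays, was at 6.57, 6.54 and 6.51 against 8.02, 8.05 and 7.96 (-1.47, SE 0.09, adjusted p = 1.48e-06), a call lost with spike-in scaling. MiR-150-3p (0.46) and miR-150-5p (0.06) did not pass and were detected on all 6 arrays. The summed linear intensity of the 4 tested leukocyte miRNAs of 8 on the list was 605 to 731 in Thy1-EVs and 816 to 1087 in MSC-EVs, and that of the 2 tested erythroid miRNAs of 4 was 1511 to 2911 and 3925 to 4756. The list medians were -0.55 and -0.63, and the latter became 0.09 with spike-in scaling. MiR-155-5p was detected on none of the 6 arrays and miR-142-3p on 1. MiR-146a-5p, miR-16-5p and miR-223-3p are also known from leukocytes, and the part of blood cells in the differences was not tested.

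Of the markers of other liver cells, 3 of 17 hepatocyte, 3 of 12 epithelial and 0 of 2 endothelial miRNAs tested passed, against 23.5% over all miRNAs tested. In the hepatocyte list miR-378a-3p, miR-378b and miR-101a-3p fell, none rose, and the median was 0.01, or -0.43 after scaling to the median. MiR-101a-3p (-0.49) was detected on no Thy1-EV and 1 MSC-EV array and was tested because all MH-EV arrays detected it, so it lay near background in both sources. Its call was lost under each of the 5 other scalings and without Thy1-EV array 2 or 3, or MSC-EV array 1 or 2. MiR-122-5p, the dominant hepatocyte miRNA, was at 9.00, 9.38 and 10.34 in Thy1-EVs, 8.19, 9.11 and 8.09 in MSC-EVs (1.11, adjusted p = 0.0690) and at a mean of 14.12 in MH-EVs. The summed intensity of the hepatocyte list was 4361 to 6831 in Thy1-EVs, 5408 to 6018 in MSC-EVs and 31390 to 32404 in MH-EVs. In the epithelial list miR-182, miR-183-5p and miR-141-5p rose and none fell, with a median of 0.00, or -0.52 after scaling to the median, and summed intensities of 976 to 1269 against 869 to 917. MiR-200b-3p and miR-200c-3p, defining epithelial miRNAs, were detected on none of the 6 arrays and miR-200a-3p on 1. Neither endothelial miRNA tested passed, with miR-126a-3p at -0.32.

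The imprinted Dlk1-Dio3 region is a large miRNA cluster on chromosome 6. Of 30 tested members of 82 on the list, 6 rose and 1 fell, a share near the 23.5% over all miRNAs tested, with a median of 0.12 that became -0.38 after scaling to the median. MiR-323-5p was at 7.85, 7.87 and 8.07 in Thy1-EVs and 7.09, 6.53 and 7.31 in MSC-EVs (0.95, SE 0.22, adjusted p = 0.0102), and miR-665 at 8.49, 7.81 and 8.53 against 7.11, 7.44 and 7.43 (0.95, SE 0.22, adjusted p = 0.0110). The calls of miR-409a-3p, miR-485-3p, miR-487b-5p and miR-487b-3p were lost under each of the 5 other scalings. That of miR-665 was lost with the median, the 75th percentile, cyclic loess and spike-in scaling, and that of miR-323-5p with all of these except cyclic loess. MiR-667-5p, from the same region but not on the list, rose by 0.95 (adjusted p = 0.0290). Its call was lost without Thy1-EV array 3, without MSC-EV array 1 or 2, and under the same scalings as that of miR-665. Among the late catalogued miRNAs, numbered 3000 and above, 11 of 51 tested rose and none fell, against 12.9% higher and 10.6% lower over all miRNAs tested, with a median of 0.20 that became -0.23 after scaling to the median. Neither the 6 members of the miR-290 cluster nor the 4 of the muscle and neuron list included a miRNA that passed, nor did the 2 each of miR-130/miR-301 and miR-148/miR-152. In the bone and cartilage list 2 of 11 tested members rose, miR-31a-5p and miR-211-3p, and miR-335 fell by 0.77 on the log2 scale, with a median of 0.09 that became -0.40 after scaling to the median. The call of miR-211-3p was lost without Thy1-EV array 1 or 3, or MSC-EV array 2 or 3, and with the 75th percentile and cyclic loess. Among the 5 other scalings that of miR-335 was kept only with cyclic loess.

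The increases were richer in G and C than the decreases. The mature sequences of 345 of the 387 tested miRNAs were matched to RefSeq. Their median GC content was 57.9% among the increases, 44.5% among the decreases and 52.4% over all tested. Among those detected on all 6 arrays it was 61.9%, 45.5% and 54.5% for increases, decreases and miRNAs not called. Across miRNAs, which are not independent replicates, GC content and the log2 difference had a Pearson r of 0.29 and a Spearman rho of 0.35 (n = 345), or 0.41 and 0.42 over the 141 detected on all 6 arrays. GC content also sets how strongly a miRNA binds its probe, and its part in the differences was not tested.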

How the data were processed

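The authors extracted miRNA from EVs isolated by filtration and ultracentrifugation, labelled it with Cy3 and hybridised each sample to 1 3D-Gene array. The authors deposited, for each probe of an array, its raw intensity, a background-subtracted value where the probe was detected, and a normalized intensity that puts the median detected probe at 25. Neither the scanner and its software nor any slide or scan date were found in the labels, the files or the methods.

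Values here start from the raw intensity. It was corrected by normexp against 1504 blank spots (offset 50), normalized by quantiles across all 12 arrays and log2-transformed. A probe was detected where the authors gave a background-subtracted value, that is, above the mean of the blank spots (5% trimmed at either end) plus 2 SD, and the 387 probes that all 3 arrays of any 1 of the 4 groups detected were tested. The MH-EV arrays detected 425 to 528 probes. The mean signal of spike-in control 1 was 5139 to 7915 on them, against 28678 to 32905 on the other arrays. The 2 flagged probe values were left out. One mean per group was fitted to the 12 arrays with limma 3.58.1 in R 4.3.3 (lmFit and eBayes), and two-sided p-values were adjusted by Benjamini-Hochberg over the probes tested, threshold 0.05. Intervals are 95% intervals of that fit. For arms, the 5p minus 3p log2 values were fitted in the same way and adjusted over 86 precursors. Folds written as at least are the mean of the detecting group over the mean, per array, of the lowest detected level or the probe's own, whichever is higher. The number of arrays limits the precision, with a median SE of 0.187. The model was tested on simulated data. The methods' t-test was run as an alternative.

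The miRNAs named were drawn from the 12 largest changes per direction among those that passed, were detected on all 6 arrays and did not overlap between the groups. Further ones passed and were detected in 1 group only or partly in the other (up to 8 and 5). The rest were drawn from the 12 shared miRNAs with the narrowest intervals, the study's own selection, and from each list the members that passed and up to 4 others by p. Not every miRNA that these rules select is described, for instance miR-375-5p, miR-347 and miR-511-3p. MiR-34a-5p, miR-26b-3p, miR-10b-5p, miR-196a-5p, miR-196c-5p, miR-142-3p, miR-155-5p, miR-200a-3p, miR-200b-3p and miR-200c-3p were named after their values were seen. The members and lists were chosen with earlier results of these data known. RefSeq (GRCr8) held a sequence for 653 of the 727 probes, matched by name. Alternatives were other background corrections, scalings, filters, arrays in the fit, tests, a replicate block and leaving out each array in turn. Medians of the lists and the arm comparison under these settings, and the authors' intensities over probes detected on all 12 arrays, were added after seeing the data.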

Additional observations from a re-analysis of the deposited data

Results flagged for a closer look

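Each array holds 675 spots without a probe, which were outside the main comparison. On the Thy1-EV arrays 44.4% to 49.9% of them lay above the detection limit taken from the blank spots, and on the MSC-EV arrays 50.5% to 69.8%, so a signal appeared in data outside the main measurement. Of the miRNA probes, 31.4% to 49.4% were detected on the Thy1-EV arrays and 23.9% to 35.2% on the MSC-EV arrays. Detection by this limit therefore does not by itself tell a miRNA from the signal of a spot without a probe. With a limit at the 95th percentile of the probe-free spots, 102 miRNAs were detected on all 6 arrays in place of 158.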

How the results depend on the processing

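The scaling and the choice of test both changed the counts. The 50 higher and 41 lower miRNAs became 17 and 21 with the median of the common probes, 8 and 22 with their 75th percentile, 15 and 27 with cyclic loess, and 28 and 3 with spike-in scaling. The authors' intensities gave 10 lower, or 6 over probes detected on all 12 arrays. With only the Thy1-EV and MSC-EV arrays normalized and fitted, 38 were higher and 36 lower, and 63 of the 91 calls were kept. Probes detected on all 6 arrays gave 27 higher, and the methods' t-test after Benjamini-Hochberg gave 9 higher and 14 lower (70 and 51 unadjusted). Without 1 replicate, 31 to 50 were higher, 31 without Thy1-EV replicate 2, and 32 to 40 lower. Of the 61 miRNAs within 2-fold, 6 remained in number with plain subtraction, 38 with an offset of 16, 37 with the median, 22 with the 75th percentile, 17 with spike-in spots, 1 in the authors' intensities (0 over probes detected on all 12 arrays) and 26 with detection against probe-free spots, which left 102 detected on all 6 arrays. The 22 precursors whose arms differed became 14 with cyclic loess, 11 in the authors' intensities, 8 with probes detected on all 6 arrays and 14 with only these 6 arrays, and 15 to 20 without 1 replicate. With the median of the common probes the sign turned for miR-409a-3p (-0.09), miR-487b-5p (-0.15), miR-485-3p (-0.01), miR-675-3p (-0.06), miR-26b-3p (-0.24) and miR-3558-5p (-0.04), with the 75th percentile for miR-409a-3p (-0.33), miR-141-5p (-0.18), miR-487b-5p (-0.39), miR-485-3p (-0.25), miR-664-2-5p (-0.02), miR-675-3p (-0.30), miR-26b-3p (-0.48) and miR-3558-5p (-0.28), and with spike-in spots for miR-451-5p (0.06). The cause was not tested. Arrays with the same replicate number did not deviate together (correlations of 0.11, -0.10 and 0.05), and a replicate block gave 60 higher and 43 lower and kept 90 of the 91 calls.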
